A study of Sus scrofa with 3 samples.

Results

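Of the 10 genes of the Wnt pathway described here, 7 had a probe on the array. Against ETEC-challenged cells without lactobacilli, SFRP5, a secreted Wnt antagonist, was at least 2-fold lower in both lactobacillus cultures. NDP, a ligand of a Frizzled receptor, was at least 2-fold higher in both by its brighter probe, but short of 2-fold with its probes averaged. LEF1, a transcription factor of the pathway, was 1.67-fold lower in TL2937+ETEC and 2.003-fold lower in TL2766+ETEC by its brightest probe. The second value fell under 2-fold with quantile or loess normalization and in the authors' table, and the next LEF1 probe was 1.078-fold lower in TL2766+ETEC. AXIN2 was 1.87-fold higher in TL2937+ETEC and 1.395-fold higher in TL2766+ETEC. All 4 signals were close to background. With a normexp background correction none of these differences reached 2-fold. Its offset of 50 by itself shrinks differences of signals this dim, so this could not test them. The genes were chosen by their role in the pathway and on their log2 differences between the arrays in earlier results of these data, so that their differences are given as a description: SFRP5, SFRP1 and SFRP2 (secreted antagonists), DKK1 (an antagonist of the co-receptor), WNT5A and NDP (ligands), AXIN2 and CTNNB1 (cytosolic transduction) and LEF1 and TCF7L2 (nuclear factors). They were found by the array's gene name or by the probe's description, gene identifier or accession, which gave 23 of the 43603 non-control probes and 7 of the 6363 genes with a symbol. SFRP1, SFRP2 and WNT5A had no probe by these names and are not analysed here.

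The cells were PIE cells, a non-transformed line set up from the gut epithelium of an unsuckled newborn piglet. The TL2937+ETEC culture was grown for 3 days, kept for 48 h with Lactobacillus jensenii TL2937, washed to remove the bacteria and challenged for a further 12 h with ETEC PAMPs, molecular patterns taken from enterotoxigenic Escherichia coli. The TL2766+ETEC culture was treated in the same way with Lactobacillus plantarum TL2766, and the ETEC culture received the ETEC PAMPs with control medium in place of lactobacilli. All 3 cultures were therefore challenged, each group was 1 culture on 1 array, and the unchallenged cells of the design are not analysed here. With no replicate culture no difference below was tested. The 3 arrays lay on 1 slide at positions of their own, so culture, array position and treatment cannot be told apart.

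Wnt proteins bind Frizzled receptors and the co-receptors LRP5 and LRP6 on the cell surface. Without this signal a destruction complex built on axin marks β-catenin, the product of CTNNB1, for degradation, and with it β-catenin accumulates and joins TCF and LEF factors on DNA. In the intestine the pathway is known for keeping crypt stem cells dividing. Secreted frizzled-related proteins bind Wnt ligands outside the cell, and DKK1 blocks the co-receptors. NDP encodes norrin, which is unrelated to Wnt proteins in sequence and acts through the receptor FZD4. AXIN2 is both a scaffold of the destruction complex and a widely used target gene of the pathway.

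The probes that carry the differences are 60-base oligonucleotides, printed 5′ to 3′ from the deposited files. They are shown because the readings of SFRP5, NDP, LEF1 and AXIN2 rest on these few oligonucleotides. The SFRP5 probe and the dimmer NDP probe are given whole, and for the others bases 1 to 30 are given.
SFRP5: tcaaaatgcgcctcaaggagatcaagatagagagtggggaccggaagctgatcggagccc
NDP, brighter probe, bases 1 to 30: caaagtggcagaaagaattggttcccttga
NDP, dimmer probe: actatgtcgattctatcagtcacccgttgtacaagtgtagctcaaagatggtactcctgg
LEF1, brightest probe, bases 1 to 30: gggaacttgtggaagagtcctctccgtttc
AXIN2, bases 1 to 30: cgtctgtatatattgtgcggcgaaagagta
The GC content was 55% for the SFRP5 probe, 45% for both NDP probes, 43.3% for the LEF1 probe and 40% for the AXIN2 probe.

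Signals are given as scaled intensities, the scanner's processed signal divided by the array's 75th percentile and multiplied by the geometric mean of these percentiles, 480.8. The error of a signal is the scanner software's estimate for that spot, and the error of a log2 difference combines those of both arrays. These errors cover the spot and not the culture. On the arrays 62.5% (TL2937+ETEC), 61.7% (TL2766+ETEC) and 60.9% (ETEC) of non-control spots carried the software's flag for a signal well above background, and the lowest scaled intensity with that flag was 11.6, 11.8 and 12.9. A gene counts as called, higher or lower, if the signals of its brightest probe were 2-fold or more apart and that probe carried the flag on each array compared. Of the 23 member probes, 15 were well above background on all 3 arrays, 3 on 1 or 2 arrays and 5 on none.

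The labels call the line epithelial, and the epithelial markers were at or close to background on these arrays. Of 12 epithelial markers, 10 had a probe, and 5 of them (EPCAM, KRT18, KRT20, CLDN4 and ESRP1) were well above background on no array. KRT8, CLDN3 and CLDN7 were well above background on all 3 arrays, at scaled intensities between 13.9 and 23.9. The summed scaled intensity of the 10 was 117 in TL2937+ETEC, 120 in TL2766+ETEC and 132 in ETEC cells. The junction protein gene CDH1 (E-cadherin) had scaled intensities of 25.1 in TL2937+ETEC, 8.63 in TL2766+ETEC and 17.2 in ETEC cells. It was not well above background in TL2766+ETEC, so no fold against that array is given. All 8 measured markers of the mesenchymal list were well above background on all 3 arrays, with a sum between 527700 and 573300, most of it from vimentin (VIM) and fibronectin (FN1). COL1A2, PDGFRB, THY1, DCN and LUM of that list lay between 28.5 and 82.9, also close to background. Of the 6 endothelial markers 5 were well above background on all 3 arrays, with a sum between 155700 and 161600. PECAM1 alone lay at 84030 in TL2937+ETEC, 85370 in TL2766+ETEC and 86700 in ETEC cells. Among leukocyte markers CD14 was well above background on all 3 arrays, at 722.8 in TL2937+ETEC, 740.7 in TL2766+ETEC and 622.8 in ETEC cells, CD3E on 2 arrays and PTPRC on none. The results below are therefore described for PIE cells by name, without resting on an epithelial identity.

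**Figure D1:**
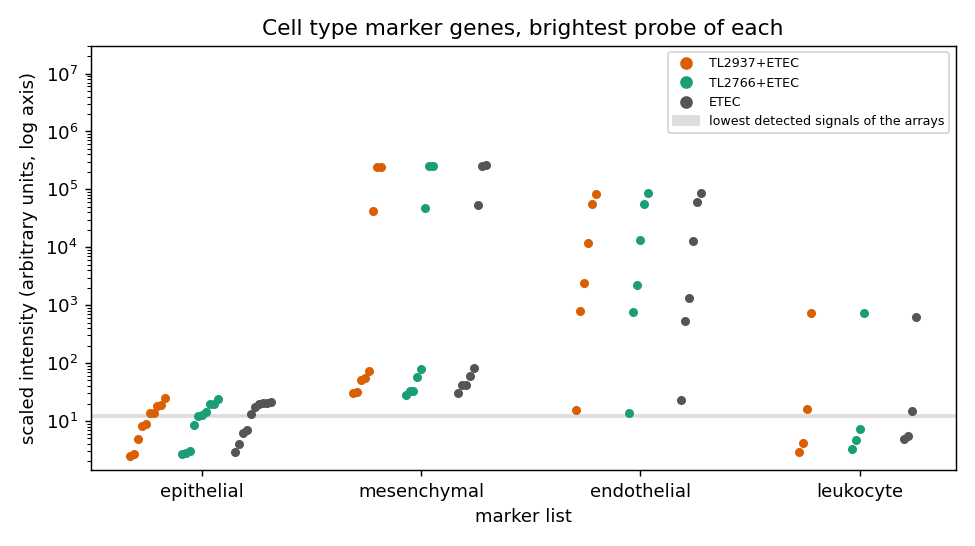
Scaled intensity (log axis, arbitrary units) of the marker genes of each cell type list on the 3 arrays, 1 point per gene and array, brightest probe of each. The epithelial markers lie between 2.51 and 25.1 around the lowest detected signals (grey band), while VIM and FN1 lie at 242700 or more and PECAM1 at 84030 or more on every array.

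SFRP5, which encodes an antagonist that binds Wnt proteins outside the cell, had lower signals in the lactobacillus cultures than in ETEC cells. Its probe lay at 38.0 ± 4.7 in TL2937+ETEC cells and 30.55 ± 4.16 in TL2766+ETEC cells, against 82.5 ± 8.9 in ETEC cells. Both lactobacillus arrays were thus below the ETEC array, by more than the spot errors. SFRP5 was 2.17-fold lower in TL2937+ETEC than in ETEC cells (log2 difference -1.12 ± 0.24) and 2.70-fold lower in TL2766+ETEC than in ETEC cells (-1.43 ± 0.25). It ranked 6 from the lowest of 4861 genes in the TL2937 comparison and 3 from the lowest of 4835 genes in the TL2766 comparison. In bulk RNA, fewer cells that express a gene and less of its RNA per cell cannot be told apart. SFRP5 has 1 probe, so no other reading of the gene was at hand.

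The other antagonist among the members, DKK1, was well above background on no array. Its probe lay at 2.51 in TL2937+ETEC, 4.01 in TL2766+ETEC and 2.85 in ETEC cells, all under the lowest detected signals, and no fold is given.

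NDP, the norrin gene, differed in the opposite direction. Its brighter probe lay at 67.9 ± 7.5 in TL2937+ETEC cells and 62.5 ± 7.1 in TL2766+ETEC cells, against 27.4 ± 4.1 in ETEC cells. Both lactobacillus arrays were above the ETEC array by more than the spot errors. NDP was 2.48-fold higher in TL2937+ETEC than in ETEC cells (1.31 ± 0.27) and 2.28-fold higher in TL2766+ETEC than in ETEC cells (1.19 ± 0.27). The dimmer probe was well above background on no array, at 8.16 in TL2937+ETEC, 8.06 in TL2766+ETEC and 5.52 in ETEC cells. It lies at base 127 of its transcript record and the brighter one at base 1579 of another record, and their longest shared run was 6 bases. The NDP difference therefore rests on the brighter probe alone, and with the mean of both probes it was 0.94 in TL2937+ETEC and 0.87 in TL2766+ETEC against ETEC, short of the call.

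LEF1, an HMG-box factor that binds β-catenin on DNA, had lower signals after lactobacilli. Its brightest probe lay at 22.9 ± 3.75 in TL2937+ETEC cells and 19.15 ± 3.35 in TL2766+ETEC cells, against 38.4 ± 4.8 in ETEC cells. The ETEC array was the highest. LEF1 was 1.67-fold lower in TL2937+ETEC than in ETEC cells (-0.74 ± 0.30), short of the 2-fold call. It was 2.003-fold lower in TL2766+ETEC than in ETEC cells (-1.002 ± 0.31), just inside it, and 1.998-fold lower by the values of the authors' own table. The next probe of LEF1 lay at 10.9 in TL2937+ETEC, where it was not well above background, 17.95 in TL2766+ETEC and 19.35 in ETEC cells. By that probe the log2 difference from ETEC was -0.83 ± 0.49 for TL2937+ETEC, resting on that signal near background, and -0.11 ± 0.41 for TL2766+ETEC. The lower LEF1 signal of TL2766+ETEC cells thus stood in the brightest probe and not in the next. The other 3 LEF1 probes were well above background on no array, with scaled intensities up to 8.28. With the mean of all 5 probes the log2 difference from ETEC was -0.33 in TL2937+ETEC and -0.58 in TL2766+ETEC.

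TCF7L2, the TCF factor best known from intestinal epithelium, was close to level. Its brightest probe lay at 2149 ± 215 in TL2937+ETEC, 2229 ± 223 in TL2766+ETEC and 2075 ± 208 in ETEC cells. The log2 difference from ETEC was 0.05 ± 0.20 for TL2937+ETEC and 0.10 ± 0.20 for TL2766+ETEC, within the spot error. Of its 6 probes 4 were well above background on all 3 arrays, and their log2 differences ranged from -0.17 to 0.20 for TL2937+ETEC against ETEC and from 0.096 to 0.28 for TL2766+ETEC against ETEC.

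A pair of the dim TCF7L2 probes differed in which array gave the highest signal, and the reason was not tested. They share a run of 52 bases, given here in lower case, with the bases outside that run in capitals.
TCF7L2, probe 4 by brightness: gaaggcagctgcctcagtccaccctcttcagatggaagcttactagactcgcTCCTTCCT
TCF7L2, probe 5 by brightness: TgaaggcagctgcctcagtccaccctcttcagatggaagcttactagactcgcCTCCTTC
Probe 4 lay at 13.95 in TL2937+ETEC, 19.0 in TL2766+ETEC and 15.7 in ETEC cells, and was highest in TL2766+ETEC. Probe 5 lay at 18.8 in TL2937+ETEC, 13.5 in TL2766+ETEC and 14.6 in ETEC cells, was highest in TL2937+ETEC and was well above background only there. For TL2937+ETEC against TL2766+ETEC the log2 difference was -0.45 ± 0.39 by probe 4, about the size of its spot error, and 0.47 ± 0.50 by probe 5, which is within its spot error and opposite in sign, and for which the TL2766+ETEC signal was not well above background.

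CTNNB1, the β-catenin gene, was level across the cultures. Its brightest probe lay at 125300 ± 12530 in TL2937+ETEC, 130100 ± 13010 in TL2766+ETEC and 134800 ± 13480 in ETEC cells. All 7 probes were well above background on all 3 arrays, with no shared run longer than 7 bases. Their log2 differences lay between -0.11 and 0.036 for TL2937+ETEC against ETEC and between -0.057 and 0.12 for TL2766+ETEC against ETEC. In each of these comparisons 4 probes lay above 0 and 3 below, all within the spot error of 0.20. The lowest of the 7 probes lay at 9398 in TL2937+ETEC, 10130 in TL2766+ETEC and 9355 in ETEC cells.

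AXIN2 had its highest signal in TL2937+ETEC cells. Its probe lay at 40.5 ± 4.75 in TL2937+ETEC cells and 30.15 ± 3.95 in TL2766+ETEC cells, against 21.6 ± 3.5 in ETEC cells. It was 1.87-fold higher in TL2937+ETEC than in ETEC cells (0.91 ± 0.29) and 1.395-fold higher in TL2766+ETEC than in ETEC cells (0.48 ± 0.30), both short of the call. In the TL2937 comparison it ranked 13 from the highest of 4861 genes, next below the 12 genes called higher. The direction of AXIN2 was the opposite of that of LEF1 on both lactobacillus arrays.

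**Figure D2:**
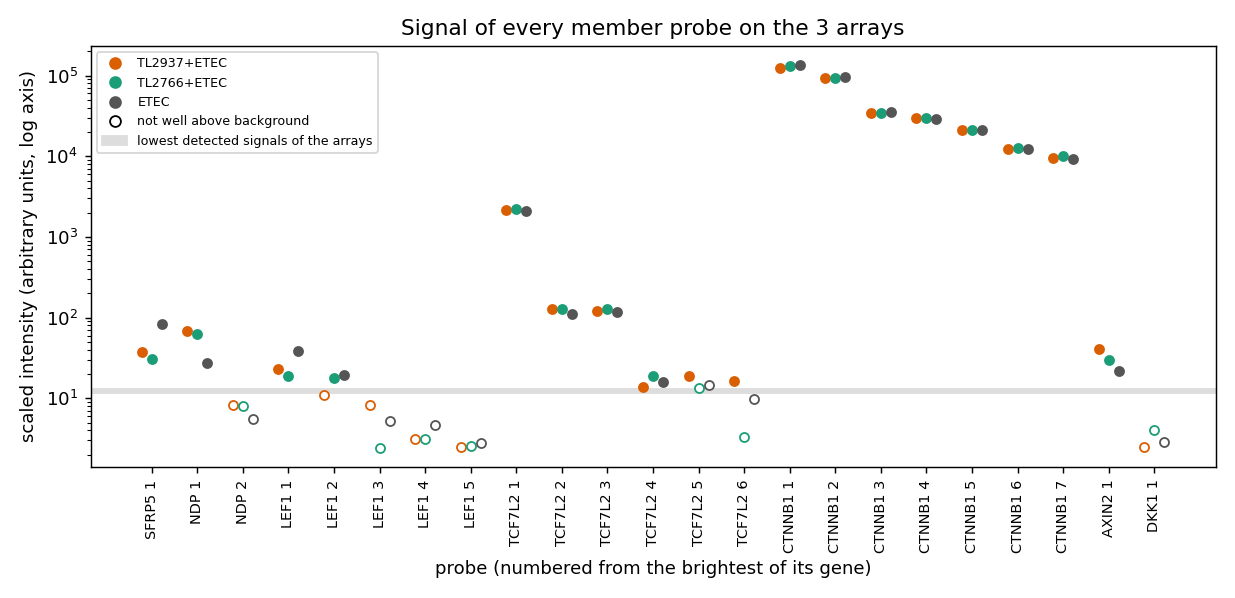
Scaled intensity (log axis, arbitrary units) of each of the 23 probes of the 7 measured members on the 3 arrays, numbered from the brightest probe of each gene. Filled points are well above background and open points are not. SFRP5, NDP, LEF1 and AXIN2 lie between 19.15 and 82.5 by their brightest probe, and all 7 CTNNB1 probes lie at 9355 or more.

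In counts, 2 of the 6 members measured on both arrays were called in TL2937+ETEC against ETEC: NDP higher and SFRP5 lower. Over all genes 0.391% were called, 0.247% higher and 0.144% lower. In TL2766+ETEC against ETEC 3 of 6 were called, NDP higher and SFRP5 and LEF1 lower, beside 0.579% of all genes, 0.331% higher and 0.248% lower. Since the members were chosen with these differences in view, nothing is read from these shares. Dim probes passed 2-fold more often than all probes did. Among probes of a mean scaled intensity under 100, a limit set with the values known, 1.24% passed it in TL2937+ETEC against ETEC and 1.64% in TL2766+ETEC against ETEC, against 0.57% and 0.683% of all probes. On the arrays 13 detected probes in that range had 5 spots each, and over them the median standard deviation of the log2 difference was 0.24 for TL2937+ETEC against ETEC and 0.29 for TL2766+ETEC against ETEC, and the highest was 0.45 and 0.57. These values cover repeat spots within an array and not the spread between cultures, which 1 culture per group cannot give.

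The signals of these members were close to background. The mean signal of their spots before background subtraction lay between 58.9 and 113.5 on the 3 arrays, with local backgrounds between 20.0 and 37.0. With a normexp background correction, which adds an offset of 50 to every signal, the log2 differences from ETEC were smaller and kept their sign. For TL2937+ETEC they were -0.45 (SFRP5), 0.30 (NDP), -0.11 (LEF1) and 0.24 (AXIN2), and for TL2766+ETEC -0.52 (SFRP5), 0.27 (NDP), -0.27 (LEF1) and 0.074 (AXIN2). None was then called. The processed signals of these spots lay between 19.2 and 78.8. An offset of 50 by itself shrinks differences of such signals, so this could not test the calls.

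**Figure D3:**
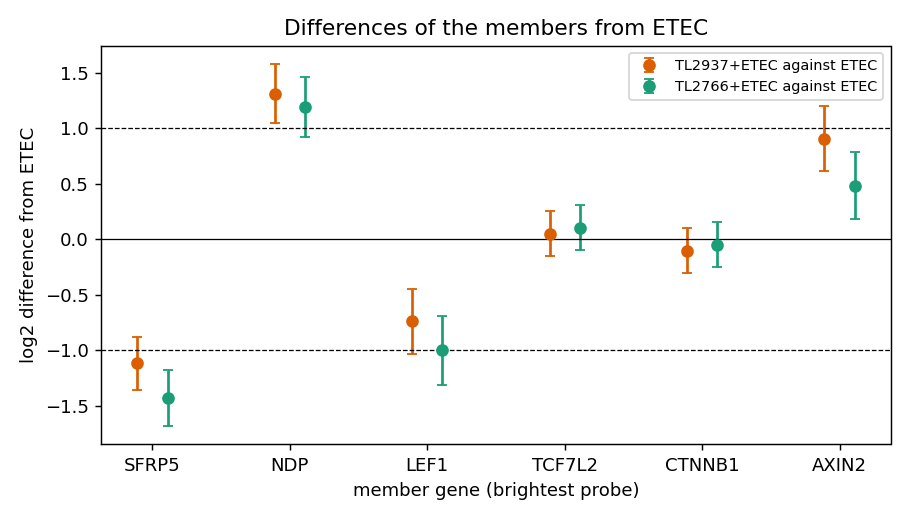
Log2 difference from ETEC of the brightest probe of the 6 members well above background on all 3 arrays. Bars are the combined spot errors and dashed lines mark 2-fold. SFRP5 and LEF1 lie below 0, NDP and AXIN2 above 0, and TCF7L2 and CTNNB1 within their spot error of 0.

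Set against each other, the lactobacillus cultures gave 0 called members of 6, beside 0.287% of all genes, 0.0821% higher and 0.205% lower. SFRP5 had a log2 difference of 0.31 ± 0.27 in TL2937+ETEC against TL2766+ETEC, LEF1 of 0.26 ± 0.35 and NDP of 0.12 ± 0.23. AXIN2 differed by 0.425 ± 0.25, a 1.34-fold higher signal in TL2937+ETEC. Those of LEF1 and NDP were within the spot error. With 1 culture each, this does not show that the strains act alike. Both comparisons with ETEC also share the ETEC array, so a reading particular to that array would appear in each.

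Of 110 other genes of the pathway, 43 had a probe and 34, 33 and 32 were well above background on both arrays in TL2937+ETEC against ETEC, TL2766+ETEC against ETEC and TL2937+ETEC against TL2766+ETEC. In each of the 3 comparisons 0 of them were called by their brightest probe. At 1.2-fold in TL2937+ETEC against ETEC, 3 were higher and 3 lower with 28 within it, while over all genes 7.28% were higher and 12.3% lower. In TL2766+ETEC against ETEC 4 were higher and 1 lower, while over all genes 8.09% were higher and 8.89% lower. In TL2937+ETEC against TL2766+ETEC 0 were higher and 1 lower, while over all genes 4.21% were higher and 7.1% lower. The list's median log2 difference was -0.060 in the TL2937 comparison and 0.039 in the TL2766 comparison, where all genes had -0.040 and 0.0011.

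Among ligands WNT10B was higher in both lactobacillus cultures, at 156 in TL2937+ETEC and 158 in TL2766+ETEC, against 113 in ETEC cells (log2 differences 0.46 and 0.48). WNT2B and WNT5B lay within 1.2-fold of ETEC on both arrays, as did WLS, which carries Wnt proteins to the cell surface. WNT11 was well above background only in TL2766+ETEC, at 27.3. Its signals of 13.98 in TL2937+ETEC and 11.1 in ETEC cells were lower but not well above background, so no fold is given. WNT2B lay at 1692 in TL2937+ETEC, 1732 in TL2766+ETEC and 1957 in ETEC cells. Levels of different probes are not compared, since probes differ in brightness for the same RNA.

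Among secreted antagonists FRZB, a further member of the frizzled-related family, lay at 255.6 in TL2937+ETEC and 358.8 in TL2766+ETEC, against 428 in ETEC cells. Its log2 difference from ETEC was -0.74 in TL2937+ETEC and -0.26 in TL2766+ETEC. All of its probes measured on both arrays lay below 0, from -1.24 to -0.74 in TL2937+ETEC and from -0.76 to -0.12 in TL2766+ETEC. The probe at -1.24 was beyond 2-fold, and the brightest, at -0.74, was not. DKK3, by contrast, was bright and level, with log2 differences of -0.084 in TL2937+ETEC and 0.019 in TL2766+ETEC. SFRP4 and DKK2 were well above background on no array.

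Receptors were mostly level. FZD10 had log2 differences from ETEC of 0.24 in TL2937+ETEC and 0.29 in TL2766+ETEC, and the receptor kinase ROR2 of -0.34 in TL2937+ETEC and -0.14 in TL2766+ETEC. By their brightest probes FZD3, RYK and ZNRF3 were within 1.2-fold of ETEC on both arrays. RYK is another Wnt receptor and ZNRF3 a ligase that removes Frizzled receptors. The 4 FZD3 probes ranged from 0.0011 to 0.37 in TL2937+ETEC and from 0.18 to 0.39 in TL2766+ETEC. FZD4, LRP5 and TSPAN12, which act with norrin, had no probe by these names and are not analysed here. LGR5, the R-spondin receptor that marks intestinal stem cells, was well above background only in ETEC cells, at 20.2. The LGR5 signals of 2.71 in TL2937+ETEC and 6.69 in TL2766+ETEC were lower but not well above background, so no fold is given.

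In the cytosol BTRC, which recognises marked β-catenin, had log2 differences from ETEC of 0.37 in TL2937+ETEC and 0.22 in TL2766+ETEC, the same sign by both probes measured on both arrays. GSK3B, CSNK1A1, DVL2 and TNKS2 were within 1.2-fold of ETEC on both arrays. Of the nuclear partners BCL9 differed from ETEC by 0.13 in TL2937+ETEC and 0.29 in TL2766+ETEC, and the co-repressor TLE3 by 0.10 in TL2937+ETEC and 0.26 in TL2766+ETEC. By their brightest probes PYGO1 and TLE4 were within 1.2-fold on both. The 4 TLE4 probes ranged from -0.31 to -0.14 in TL2937+ETEC and from -0.26 to -0.060 in TL2766+ETEC.

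Target genes differed in direction among themselves. CD44 and PPARD lay above 0 on both lactobacillus arrays, as AXIN2 did, but only CD44 in TL2766+ETEC by more than the spot error. PPARD, a nuclear receptor, lay at 66.3 in TL2937+ETEC and 64.8 in TL2766+ETEC, against 58.2 in ETEC cells. Its log2 differences were 0.19 ± 0.22 and 0.16 ± 0.22. CD44, an adhesion receptor, had log2 differences from ETEC of 0.15 ± 0.20 in TL2937+ETEC and 0.33 ± 0.20 in TL2766+ETEC. Those of MYC, -0.17 in TL2937+ETEC and -0.019 in TL2766+ETEC, were within the spot error of 0.20. The protease gene MMP7 lay at 16.4 in TL2937+ETEC and 15.1 in TL2766+ETEC, where it was not well above background, against 27.6 in ETEC cells. SOX9 lay at 29.4 in TL2937+ETEC, 8.89 in TL2766+ETEC, where it was not well above background, and 21.96 in ETEC cells. For that reason no fold of SOX9 is given against TL2766+ETEC. WNT11, LGR5, MYC, MMP7, SOX9, GSK3B, DKK3 and ZNRF3 were named with their values known, beyond the rule for named genes. In the planar cell polarity and calcium branch, NFATC1 differed from ETEC by 0.22 on both lactobacillus arrays, and RHOA and VANGL1 by less than that.

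**Figure D4:**
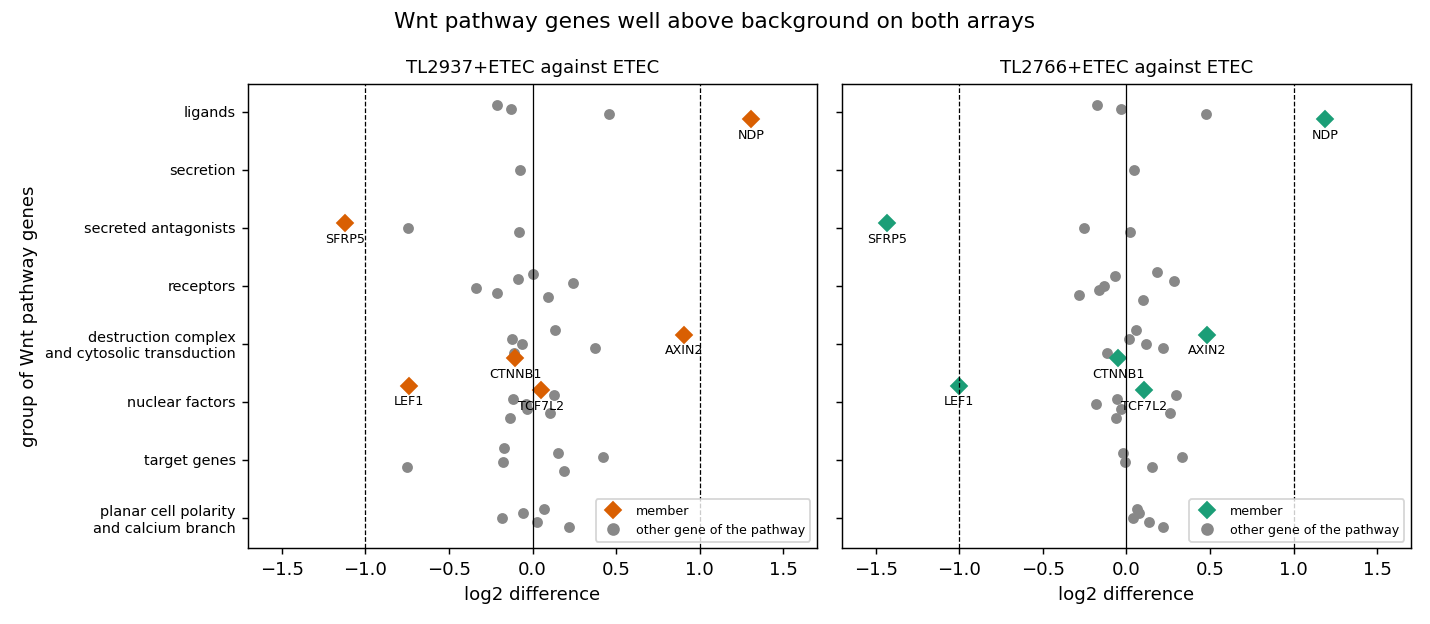
Log2 differences from ETEC of the Wnt pathway genes well above background on both arrays, by group, for TL2937+ETEC (left) and TL2766+ETEC (right). Each gene is shown by its brightest probe. Diamonds are members and dashed lines mark 2-fold. NDP lies beyond 2-fold higher and SFRP5 beyond 2-fold lower in both panels, LEF1 at the 2-fold line for TL2766+ETEC, and the other genes of the pathway lie inside 2-fold.

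Some markers of other cell types also differed from ETEC. Of the 8 mesenchymal markers 2 were at least 1.2-fold lower in each comparison. COL1A2 was lower in both, at 32.1 in TL2937+ETEC and 28.5 in TL2766+ETEC, against 41.9 in ETEC cells (log2 differences -0.38 and -0.55). The other was ACTA2 in TL2937+ETEC (-0.36) and LUM in TL2766+ETEC (-0.35), while LUM was higher in TL2937+ETEC (0.32). These LUM values are those of its brightest probe. The 4 LUM probes measured on both arrays disagreed in sign, from -0.29 to 0.32 in TL2937+ETEC and from -0.50 to 0.88 in TL2766+ETEC. Among endothelial markers a pair of receptor genes was higher. TEK lay at 2419 in TL2937+ETEC and 2189 in TL2766+ETEC, against 1340 in ETEC cells (log2 differences 0.85 and 0.71). KDR lay at 797.9 in TL2937+ETEC and 752.5 in TL2766+ETEC, against 532 in ETEC cells (0.58 and 0.50). VWF was lower, at 15.5 in TL2937+ETEC and 13.8 in TL2766+ETEC, where it was not well above background, against 22.7 in ETEC cells. PECAM1, CDH5 and CLDN5 of the endothelial list lay within 1.2-fold of ETEC on both arrays, and the summed level of that list was 155700 in TL2937+ETEC, 157700 in TL2766+ETEC and 161600 in ETEC cells. The part of these markers in the differences of SFRP5, NDP and LEF1 was not tested.

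By Euclidean distance between the log2 differences from ETEC, over 4806 other genes well above background on all 3 arrays, the genes nearest to SFRP5 were IRS1 (distance 0.25), STRA6 (0.32) and TPM1 (0.33). Those nearest to NDP were F2 (0.23), RHCG (0.23) and IGFBP6 (0.24), and those nearest to LEF1 were VSIR (0.072), PALMD (0.093) and ARHGAP39 (0.10). The pattern rests on 2 differences that share the ETEC array, and the distances are about the size of a spot error or less.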

How the data were processed

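RNA of 3 PIE cultures was hybridised to 1-colour Agilent porcine arrays. Per the file headers, the scanner software (Feature Extraction, version 10.7.3.1) produced the processed intensity with spatial and multiplicative detrending and surrogate values for low signals. The authors' value table held the same intensity within 0.496%. Its scale is linear and uncentred.

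Log2 intensities were centred on each array's 75th percentile, which was 503 (TL2937+ETEC), 481 (TL2766+ETEC) and 459 (ETEC). Control and outlier spots were left out, and spots of a probe were averaged. A gene was represented by its brightest probe. Symbols came from the array, and from gene identifiers, accessions and synonyms of a RefSeq table of assembly Sscrofa11.1, for 13660 of 43603 probes. The array files name no genome build, so no coordinates are given. No test was possible with 1 array per group. The calling step was tested on simulated data with planted 3-fold and 1.2-fold differences and every probe set as detected. That could not test calls of dim signals near 2-fold. Members and lists were chosen with earlier results of these data known. Named genes were the members, all pathway genes called and up to 4 per group by size, without those whose probes disagreed in sign, and the 3 genes nearest to SFRP5, NDP and LEF1. Computation used limma 3.58.1 in R 4.3.3, and Python 3.11.15 with pandas 2.3.3, numpy 2.4.6 and matplotlib 3.10.9.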

Additional observations from a re-analysis of the deposited data

How the results depend on the processing

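The number of members called depended on how dim signals were treated. In TL2937+ETEC against ETEC it was 2, and in TL2766+ETEC against ETEC 3. It was 0 in both with the normexp correction, when each array's signal had to exceed its median detected signal, and at 3-fold. These 3 settings could not test the calls. The offset shrinks dim differences, the called members were too dim for the median filter, and the largest member difference was 2.70-fold. The number called was 1 in both (SFRP5, whose 1 probe averaging leaves unchanged) with a gene's probes averaged, and 4 at 1.5-fold in the TL2937 comparison. LEF1 in TL2766+ETEC against ETEC was 1.96-fold lower with quantile normalization, 1.94-fold lower with cyclic loess and 1.998-fold lower in the authors' table, so that 2 members were called there. Quantile, median and loess scaling, the authors' table and kept outlier spots left the calls of SFRP5 and NDP in place. The median of the other pathway genes lay between -0.085 and -0.017 over the alternatives in the TL2937 comparison, and between -0.0080 and 0.042 in the TL2766 comparison, where it was below 0 without a background filter. Of 126 member differences recomputed, 16 moved by more than the spread of repeat spots, 10 of them with the normexp correction and 6 with the mean of all probes. No called difference changed sign, while those of TCF7L2 and CTNNB1, which lay near 0, did in some alternatives. No paired analysis was possible because each group had 1 sample, and with all arrays on 1 slide no block by slide could be fitted.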
